A study of Mus musculus with 17 samples.

Results

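The Gimap genes encode GTPases of immunity-associated proteins, a family of small GTP-binding proteins that lies as 1 cluster on mouse chromosome 6. The family was read in the mRNA of sorted mouse bone marrow populations by taking every non-control probe whose gene name on the array was Gimap1, Gimap3, Gimap4, Gimap5, Gimap6, Gimap7, Gimap8 or Gimap9. This gave 10 of the 41174 probes, for 7 of the 8 genes. Gimap8 had no probe under its name.

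Gimap proteins share a GTP-binding domain, and several of them sit in the membranes of mitochondria, the endoplasmic reticulum or lysosomes. The family is best known from lymphocytes, in which its members influence survival. Loss of Gimap5 causes a shortage of T cells in rats and mice, and Gimap5-deficient mice also have defective hematopoietic stem cells. Gimap1 is needed for mature B and T cells, and Gimap6 takes part in autophagy. Gimap4 has been linked to the death of T cells, Gimap3 is a close relative of Gimap5, and Gimap7 is a GTPase that can act on other members of the family.

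All mice were young adult C57Bl/6 females without a genetic change or a treatment, and each replicate was a pool of several mice. Lineage-depleted, c-kit-enriched bone marrow was sorted into 3 HSC subsets, namely Long-Term HSCs (LT-HSC), Short-Term HSCs (ST-HSC) and Multipotent Progenitors (MPP), and, in a separate sort, into 3 myeloid populations, namely Common Myeloid Progenitors (CMP), Granulocyte-Monocyte Progenitors (GMP) and Megakaryocyte-Erythroid Progenitors (MEP). The HSC subsets were Sca-1+ and were split by CD34 and FLT3, while the myeloid populations were Sca-1- and were split by CD34 and the Fc gamma receptor. There were 2 arrays of LT-HSC, 1 of them a pool of replicates 2 and 3, and 3 arrays of every other population. In each population 1 array carried no replicate number.

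The 17 arrays were grouped into 3 runs by the calendar month of their scan date. Run 2 was the 1 run that held both HSC subsets, as 1 ST-HSC and 1 MPP array, and myeloid populations, as 1 array each. Between 41.04% and 69.87% of the probes were well above background on an array by the scanner's own mark. The LT-HSC array without a number was the dimmest, with a 75th percentile of intensity of 53.12 before normalisation against 243.3 to 533.8 on the others. By mRNA, the sort markers Kit, Ly6a, Cd34, Flt3 and Fcgr3 were well above background on all arrays. Flt3 mRNA was higher on both LT-HSC arrays (7.58 and 8.90 log2) than on any ST-HSC array (6.76 to 6.99), although both populations were sorted as FLT3-. Ly6a mRNA, which encodes Sca-1, was at 8.95 to 10.25 in GMP and at 8.28 to 9.77 in ST-HSC, although GMP was sorted as Sca-1-.

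The member probes were 60 bases long and spanned 87.3 kb of chromosome 6 (mm9). In chromosome order they were Gimap9 (48627839 to 48627898), Gimap4 (48640866 to 48640925), Gimap6 (48651798 to 48651857), Gimap7 (48668839 to 48668898 and 48674271 to 48674330), Gimap1 (48693409 to 48693468), Gimap5 (48697390 to 48697449 and 48703501 to 48703560) and Gimap3 (48715024 to 48715083 and 48715034 to 48715093). Gimap6 and Gimap3 lie on the reverse strand. The 2 Gimap3 probes share 50 of their 60 bases and were not independent readings. The first Gimap7 probe (A_52_P684783) and the first Gimap5 probe (A_52_P102931) were designed on cDNA clones, and the others on RefSeq transcripts, as the array's annotation gives it. Exon and UTR positions of the probes are not given in the sources used here. The probes of Gimap9, Gimap4 and Gimap7 and the first Gimap5 probe are shown because the exceptions in the family rest on them.
Gimap9 A_51_P377948: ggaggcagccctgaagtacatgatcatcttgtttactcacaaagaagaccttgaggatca
Gimap4 A_52_P205001: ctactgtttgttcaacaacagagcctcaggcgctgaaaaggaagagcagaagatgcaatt
Gimap7 A_52_P684783: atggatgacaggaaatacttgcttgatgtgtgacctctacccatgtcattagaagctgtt
Gimap7 A_51_P448147: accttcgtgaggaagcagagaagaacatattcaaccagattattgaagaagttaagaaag
Gimap5 A_52_P102931: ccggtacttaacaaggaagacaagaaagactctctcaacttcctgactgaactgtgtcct

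The promoters of the 4 genes that were measured on nearly all arrays are shown because these genes moved together between the sides. They are the 250 bases before a transcript start, from RefSeq on GRCm38.p6, a build on which positions differ from those of the probes above. For Gimap9 the last bases of the window lie inside the gene as RefSeq places it. All 8 genes matched a promoter, Gimap8 with a pair that overlaps. Capitals mark motifs that were searched on both strands. They are the letters TGTGGT for RUNX factors, the letters AGATAA for the GATA factors, the letters GGAAGT for ETS factors and the letters TATAAA for the TATA box.
Gimap9, chr6:48675885-48676134, forward strand: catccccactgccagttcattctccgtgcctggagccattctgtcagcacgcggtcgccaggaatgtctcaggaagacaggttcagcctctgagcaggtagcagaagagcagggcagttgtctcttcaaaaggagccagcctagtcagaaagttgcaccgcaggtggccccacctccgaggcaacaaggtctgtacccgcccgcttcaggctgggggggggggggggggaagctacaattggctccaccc
Gimap6, chr6:48708245-48708494, reverse strand: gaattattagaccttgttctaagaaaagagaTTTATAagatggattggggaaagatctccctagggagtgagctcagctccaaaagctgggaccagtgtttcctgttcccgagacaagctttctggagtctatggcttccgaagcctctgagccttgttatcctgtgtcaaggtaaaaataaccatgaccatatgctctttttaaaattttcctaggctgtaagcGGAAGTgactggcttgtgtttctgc
Gimap1, chr6:48738797-48739046, forward strand: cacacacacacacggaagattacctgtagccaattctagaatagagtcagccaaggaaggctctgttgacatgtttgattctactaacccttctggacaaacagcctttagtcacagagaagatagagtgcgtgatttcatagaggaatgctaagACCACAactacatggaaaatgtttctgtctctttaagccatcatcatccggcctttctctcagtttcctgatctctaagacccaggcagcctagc
Gimap5, chr6:48745947-48746196, forward strand: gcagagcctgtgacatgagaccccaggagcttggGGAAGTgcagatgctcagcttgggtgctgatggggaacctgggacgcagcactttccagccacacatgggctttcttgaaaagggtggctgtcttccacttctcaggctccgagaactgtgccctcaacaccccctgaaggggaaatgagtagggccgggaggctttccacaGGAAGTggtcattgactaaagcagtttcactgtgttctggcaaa
These letters occurred in 14% (RUNX), 9.99% (GATA), 19.7% (ETS) and 12.4% (TATA box) of 32851 promoter windows of this length. Gimap1 held 1 RUNX match, Gimap5 held 2 ETS matches, Gimap6 held 1 ETS and 1 TATA box match, and Gimap9 held none, so no motif was shared by all 4. The window of Gimap9 was the richest in G and C, at 61.2% with 8 CpG, against 43.6% to 55.6% with 3 CpG in each of the other three and a median of 52.4% with 6 CpG over all promoters.

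The family fell into 2 kinds by signal. The single probes of Gimap9, Gimap6 and Gimap1 and the second Gimap5 probe (A_51_P176365) were well above background on all 17 arrays, and the first Gimap5 probe on 15. Of the other probes, those of Gimap7 were well above background on 7 and 5 arrays, and the Gimap4 probe and both Gimap3 probes on 2 arrays each. Weakly detected genes lay among the measured ones in the cluster, with Gimap4 between Gimap9 and Gimap6 and Gimap7 between Gimap6 and Gimap1, while Gimap1 and Gimap5 are next to each other. All values below are normalised log2 intensities, so that a difference of 1 is a doubling, and levels of different probes were not compared.

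**Figure D1:**
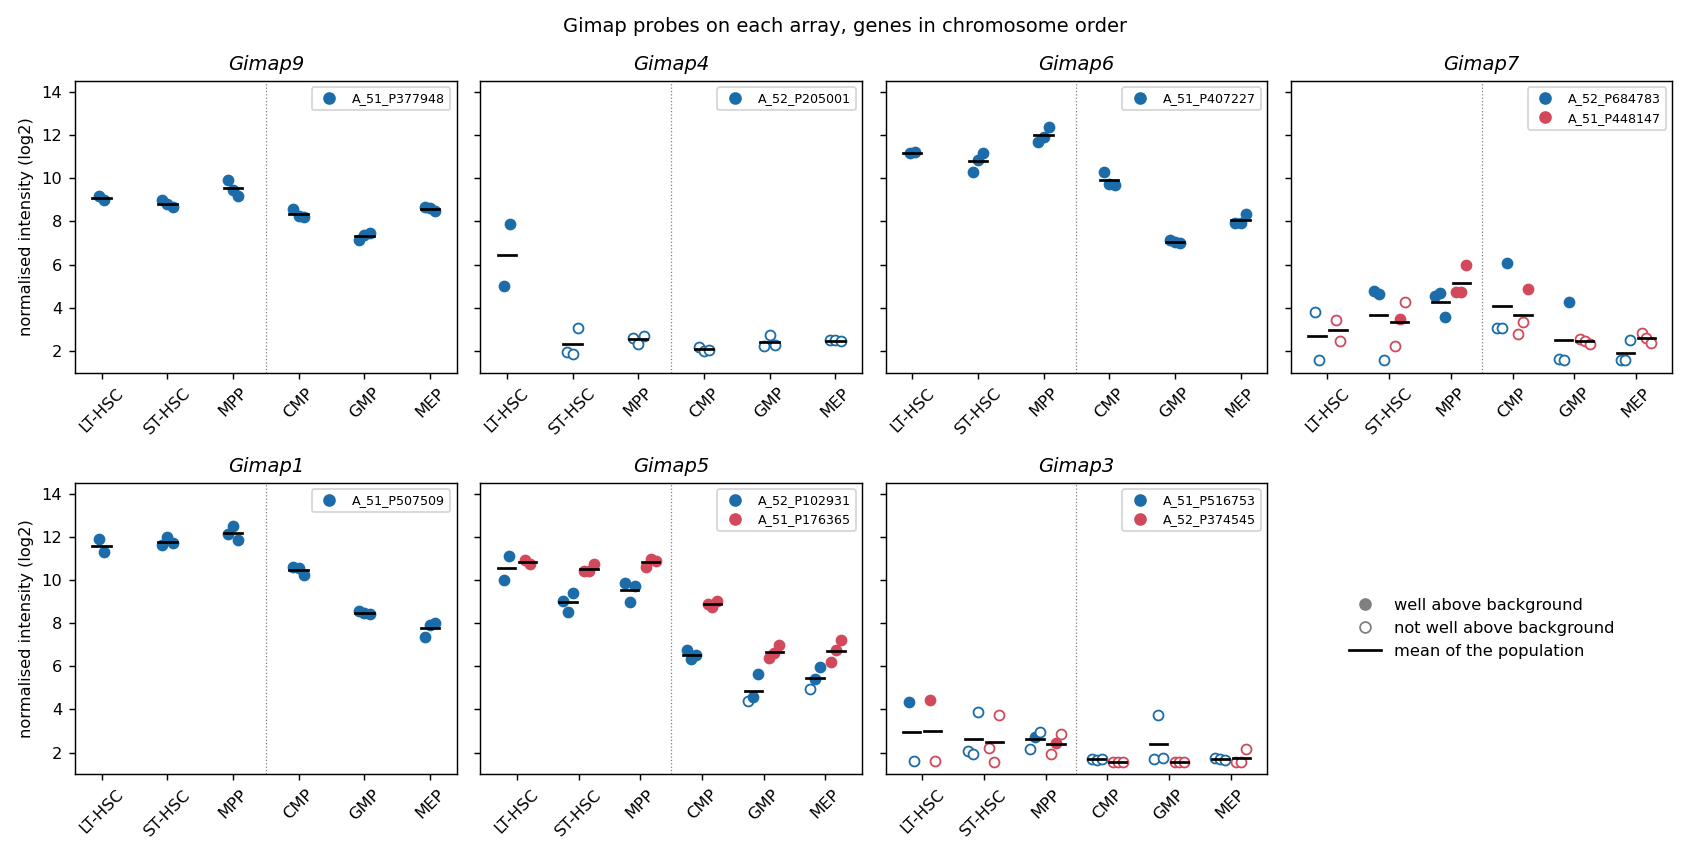
Normalised log2 intensity (vertical axis) of every Gimap probe on each of the 17 arrays, by population (horizontal axis), with a panel per gene in chromosome order. Points are arrays, filled where the probe was well above background, and bars are population means. Gimap6, Gimap1 and Gimap5 stand high in the 3 HSC subsets, lower in CMP and lowest in GMP and MEP, Gimap9 is lowest in GMP, and Gimap4 is above background only in LT-HSC.

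Gimap1 was high in every HSC subset and fell in 2 stages. Its level was 11.59 ± 0.43 (SD, n = 2) in LT-HSC, with 11.89 on the pooled array and 11.28 on the other. It was 11.64, 11.97 and 11.73 in ST-HSC and 12.12, 12.52 and 11.86 in MPP. These 3 populations overlapped. CMP arrays were lower, at 10.61, 10.56 and 10.24. GMP arrays were at 8.55, 8.49 and 8.41, and MEP arrays were lowest of all, at 7.37, 7.91 and 8.02. No array of CMP, GMP or MEP overlapped with an array of another population.

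Gimap5 was read by 2 probes that moved alike. On the second probe the level was 10.91 and 10.73 in LT-HSC, 10.42, 10.41 and 10.74 in ST-HSC, and 10.62, 10.95 and 10.87 in MPP. CMP arrays were at 8.89, 8.74 and 9.03, below every HSC array. GMP (6.40, 6.64 and 6.98) and MEP (6.21, 6.77 and 7.20) were lowest and overlapped. The first probe gave 9.98 and 11.09 in LT-HSC, 9.01, 8.53 and 9.38 in ST-HSC, 9.87, 9.0 and 9.71 in MPP and 6.77, 6.33 and 6.53 in CMP. It fell to 4.41, 4.6 and 5.63 in GMP and to 4.94, 5.43 and 5.95 in MEP, where 1 GMP and 1 MEP array were not well above background. On this probe both LT-HSC arrays were above every ST-HSC and MPP array, which was not so on the second.

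Gimap6 was highest in MPP. It was 11.16 and 11.22 in LT-HSC, 10.31, 10.85 and 11.18 in ST-HSC, and 11.68, 11.93 and 12.36 in MPP, so that every MPP array was above every other array. CMP followed at 10.31, 9.74 and 9.71, and its highest array lay next to the lowest ST-HSC array (10.305 against 10.306). MEP stood at 7.95, 7.94 and 8.35 and GMP at 7.15, 7.03 and 7.02. Here GMP was the lowest population, where for Gimap1 it was MEP.

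Gimap9 had the narrowest range of these genes and another order in the myeloid populations. It was 9.16 and 9.01 in LT-HSC, 8.98, 8.82 and 8.68 in ST-HSC, and 9.94, 9.46 and 9.20 in MPP. The MEP arrays, at 8.66, 8.62 and 8.48, lay just under ST-HSC and overlapped with CMP, at 8.56, 8.26 and 8.19. GMP alone stood apart, at 7.15, 7.37 and 7.49. The order was thus MPP, LT-HSC, ST-HSC, MEP, CMP and GMP, and MEP and CMP were the neighbours in it that overlapped.

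Gimap4 was well above background in LT-HSC only. After normalisation the 2 LT-HSC arrays were far apart, at 5.03 on the pooled array and 7.89 on the dim array without a number. Their intensities before it, not on the log2 scale, were 27.51 and 38.74. The other 15 arrays, at 1.88 to 3.06 after normalisation, were not well above background. Of the 11 T cell markers measured, 7 had a higher mean in LT-HSC than in MPP and 4 a lower one. For 3 of them, Cd3d, Cd3g and Cd8b1, both LT-HSC arrays were above every other array, with Cd8b1 at 8.66 and 7.59 against at most 6.44 elsewhere and Cd3d at 7.25 and 6.17 against at most 6.06. Cd3g was not well above background on the LT-HSC array without a number. The share of all probes with both LT-HSC arrays above every other array was not determined. The 4 with lower means in LT-HSC than in MPP were Cd8a (5.06 against 7.75), Lck (9.82 against 10.78), Cd5 (7.95 against 8.59) and Lat (10.57 against 10.95). Zap70 was at 8.41 on the LT-HSC array without a number and at 5.48 on the pooled array, and 10 of the other arrays were above the latter. The summed intensity of the 11 markers, most of it from Lat and Lck, was 3140 to 4184 in LT-HSC, 2690 to 3345 in ST-HSC and 4342 to 5075 in MPP, and no marker was at 0. Cells with CD3 had been depleted before the sorts, and the part of such cells in the Gimap4 signal was not tested.

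Gimap7 and Gimap3 were not well above background on most arrays. The second Gimap7 probe (A_51_P448147) was well above background on all 3 MPP arrays (4.72, 4.73 and 6.0), on 1 ST-HSC array (3.48) and on the CMP array of run 2 (4.89), and on no LT-HSC, GMP or MEP array. The first Gimap7 probe was well above background on all 3 MPP arrays (4.54, 4.70 and 3.60), on ST-HSC replicates 2 and 3 (4.78 and 4.62) and on the CMP and GMP arrays of run 2. It was highest on that CMP array, at 6.08. The GMP array of run 2 was at 4.28, where the other GMP arrays stood at 1.61 and 1.59. The 2 probes of Gimap7 thus disagreed on GMP. Both Gimap3 probes were well above background on the pooled LT-HSC array (4.36 and 4.44) and on 1 MPP array (2.73 and 2.45), and the Gimap3 level on the other LT-HSC array was 1.60 on both.

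The populations were compared in a linear model over all 41174 probes with limma, with Benjamini-Hochberg adjustment and 1 mean per population. In the F-test over the 6 populations, 7 of the 10 member probes, of 6 genes, passed an adjusted p of 0.05, as did 40.6% of all probes. At a p of 1e-06 the count was 5 probes, those of Gimap9, Gimap6, Gimap1 and both of Gimap5, against 4.9% of all probes. The F-test p ran from 9.7e-11 for the second Gimap5 probe to 7.97e-07 for Gimap9.

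Between HSC subsets and myeloid populations, all 10 probes had higher means in HSC subsets and 7 passed the test, against 18.2% of all probes called higher. The median difference was 1.25 over the member probes and -0.02 over all probes. Because RNA was taken from whole sorted populations, fewer cells with a transcript and less of it in each cell cannot be told apart. The 2 sides also came from separate sorts, and sort and side cannot be told apart.

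Gimap5 had the largest differences in this fit. They were 4.06 ± 0.24 (SE, n = 8 and 9 arrays) on the first probe and 3.29 ± 0.14 on the second, or 16.7-fold and 9.78-fold, with limma adjusted p of 7.48e-08 and 5.72e-09. Gimap6 followed at 2.96 ± 0.15 (7.8-fold, limma adjusted p = 1.84e-08) and Gimap1 at 2.94 ± 0.14 (7.66-fold, limma adjusted p = 1.04e-08). With normexp background correction the Gimap5 probes gave 2.55 and 2.57, next to 2.53 for Gimap6 and 2.56 for Gimap1, so that these 4 probes were nearly level. With the authors' table the Gimap5 probes gave 3.24 and 2.93. Gimap9 was higher by 1.06 ± 0.11, or 2.09-fold, with a limma adjusted p of 9.72e-06. On these 5 probes every HSC array was above every myeloid array, which held for 2.54% of all probes. Their differences kept their sign and their call with the run in the model (0.81 for Gimap9, 3.41 for Gimap6, 2.75 for Gimap1, 3.99 and 3.14 for Gimap5). Within run 2 alone the corresponding differences were 0.89, 3.41, 2.90, 3.51 and 3.07.

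The weakly detected members gave no firm difference. Gimap4 passed the test (1.44 ± 0.32, limma adjusted p = 0.00255), but without the 2 LT-HSC arrays the difference was 0.09 (limma adjusted p = 0.712), and with the run in the model the call was lost (2.03, limma adjusted p = 0.0549). It was 0.42 with normexp and 0.60 with the authors' table. No fold is given for it or for Gimap3, since no myeloid array was well above background and the lowest measurable signal there was above the mean of the HSC subsets. One Gimap3 probe passed (1.01 ± 0.37, limma adjusted p = 0.0427) and the other did not (0.81 ± 0.42, limma adjusted p = 0.144). The call of the first held only without the LT-HSC array without a number, ST-HSC replicate 3, MPP replicate 2 or the MEP array without a number, and was lost when any of the other 13 arrays was left out. Its limma adjusted p over these 17 fits ran from 0.00143 to 0.159 and its difference from 0.54 to 1.48. It was also lost with the run or the slide as a block (1.86 and 1.21, limma adjusted p of 0.0873 and 0.0652). It held with 75th percentile scaling (1.54, limma adjusted p = 0.000371), normexp (0.17, limma adjusted p = 0.023), the authors' table (0.33, limma adjusted p = 0.0123) and without LT-HSC (0.82, limma adjusted p = 0.0323). The other Gimap3 probe passed with 75th percentile scaling (1.43, limma adjusted p = 0.00221). It also passed without the LT-HSC array without a number (1.27, limma adjusted p = 0.0173). Gimap7 did not pass on either probe, at 0.72 ± 0.63 and 0.90 ± 0.34 (limma adjusted p of 0.394 and 0.0518). Its first probe turned to -2.37 with the run in the model (limma adjusted p = 0.0448) and was at -1.71 within run 2, while the second was at 1.94 within run 2.

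**Figure D2:**
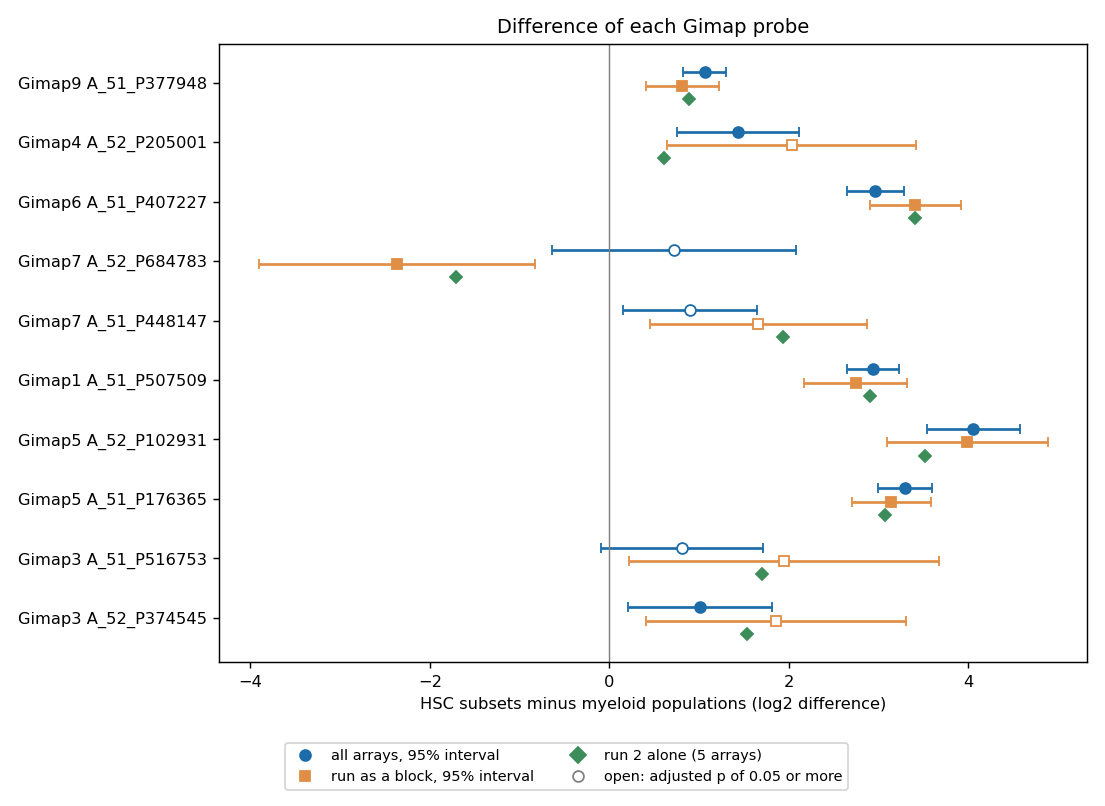
Difference between HSC subsets and myeloid populations (horizontal axis, log2) for each of the 10 Gimap probes. Circles are the fit to all 17 arrays and squares the fit with the run as a block, both with 95% intervals, and diamonds are the difference among the 5 arrays of run 2. The probes of Gimap9, Gimap6, Gimap1 and Gimap5 lie right of 0 by all 3 readings, and the first Gimap7 probe changes side.

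The sequential steps showed where the levels changed. From LT-HSC to ST-HSC, 1 of the 10 probes passed, that of Gimap4, and 2.49% of all probes were called lower at this step. Gimap4 fell by 4.16 ± 0.59 on the log2 scale (limma adjusted p = 0.00168). This SE rests on 1 spread shared by all 6 populations, although the SD was 2.02 in LT-HSC and 0.02 to 0.66 in the others. Since no ST-HSC array was well above background, only a bound on the fold could be set. It was at least 11.6-fold from the mean of both LT-HSC arrays, and at least 4.29-fold from the pooled array by itself. From the dim array by itself it was at least 31.2-fold. These bounds rest on normalised values. Before normalisation the intensity was 38.74 on the dim array and 27.51 on the pooled array. The fitted difference was smaller with normexp background correction (-1.13, limma adjusted p = 0.0256) and with the authors' table (-1.74, limma adjusted p = 0.0072). The first Gimap5 probe was lower by 1.56 ± 0.45 without passing the test (limma adjusted p = 0.0757), and passed it with the run in the model (-1.71, limma adjusted p = 0.0272). The second Gimap5 probe gave -0.30 with a 95% interval of -0.86 to 0.26.

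From ST-HSC to MPP, Gimap6 was the 1 member that passed, and 1.15% of all probes were called higher. It rose by 1.21 ± 0.25 (2.31-fold, limma adjusted p = 0.0195), by 1.22 within run 3 and by 1.18 within run 2. The call was lost without ST-HSC replicate 2 (0.97, limma adjusted p = 0.0806), ST-HSC replicate 3 (1.24, 0.0627), MPP replicate 3 (1.24, 0.0622) or the MPP array without a number (1.02, 0.0769). Gimap9 was at 0.71 ± 0.19 (limma adjusted p = 0.0893) and passed with the run in the model (limma adjusted p = 0.0347). The second Gimap7 probe differed by 1.83 ± 0.57 (limma adjusted p = 0.189).

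The step from MPP to CMP took in all the well measured members. All 10 probes had lower means in CMP and 5 passed, against 5.39% of all probes called lower. Gimap5 fell by 2.98 ± 0.40 on the first probe and by 1.93 ± 0.23 on the second, Gimap6 by 2.07 ± 0.25, Gimap1 by 1.69 ± 0.23 and Gimap9 by 1.20 ± 0.19, with limma adjusted p between 0.000243 and 0.00158. Within run 2, which held 1 MPP and 1 CMP array, the drops were 3.19, 1.84, 2.65, 1.62 and 1.0 in that order. Of the probes that did not pass, the first Gimap7 probe was higher in CMP by 2.49 within run 2, and the others were lower.

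From CMP to GMP the same 5 probes were the ones called, all lower, and 2.93% of all probes were called lower. Gimap6 fell by 2.85 ± 0.25 (limma adjusted p = 2.73e-05), Gimap5 by 2.22 ± 0.23 on the second probe (limma adjusted p = 0.000106), Gimap1 by 1.99 ± 0.23 (limma adjusted p = 0.000185) and Gimap9 by 1.0 ± 0.19 (limma adjusted p = 0.00642). The first Gimap5 probe fell by 1.66 ± 0.40 (limma adjusted p = 0.0289). Its call was lost when CMP replicate 1, CMP replicate 2, the CMP array without a number, GMP replicate 1 or GMP replicate 2 was left out (-1.43 to -1.77, limma adjusted p of 0.0651 to 0.133), with normexp background correction (-0.55, limma adjusted p = 0.335) and with the authors' table (-0.94, limma adjusted p = 0.0671).

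From CMP to MEP, 3 probes were called lower, against 9.43% of all probes. Gimap1 fell by 2.71 ± 0.23 (limma adjusted p = 2.5e-06), Gimap5 by 2.16 ± 0.23 on the second probe (limma adjusted p = 2.05e-05) and Gimap6 by 1.84 ± 0.25 (limma adjusted p = 0.000124). The first Gimap5 probe was at -1.10 ± 0.40 (limma adjusted p = 0.0822) and passed with the run in the model (limma adjusted p = 0.0381). Gimap9 differed by 0.25 ± 0.19, with a 95% interval of -0.15 to 0.65 and a limma adjusted p of 0.457. Its MEP mean was above its CMP mean within both runs that held them, by 0.23 in run 1 and 0.28 in run 2.

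**Figure D3:**
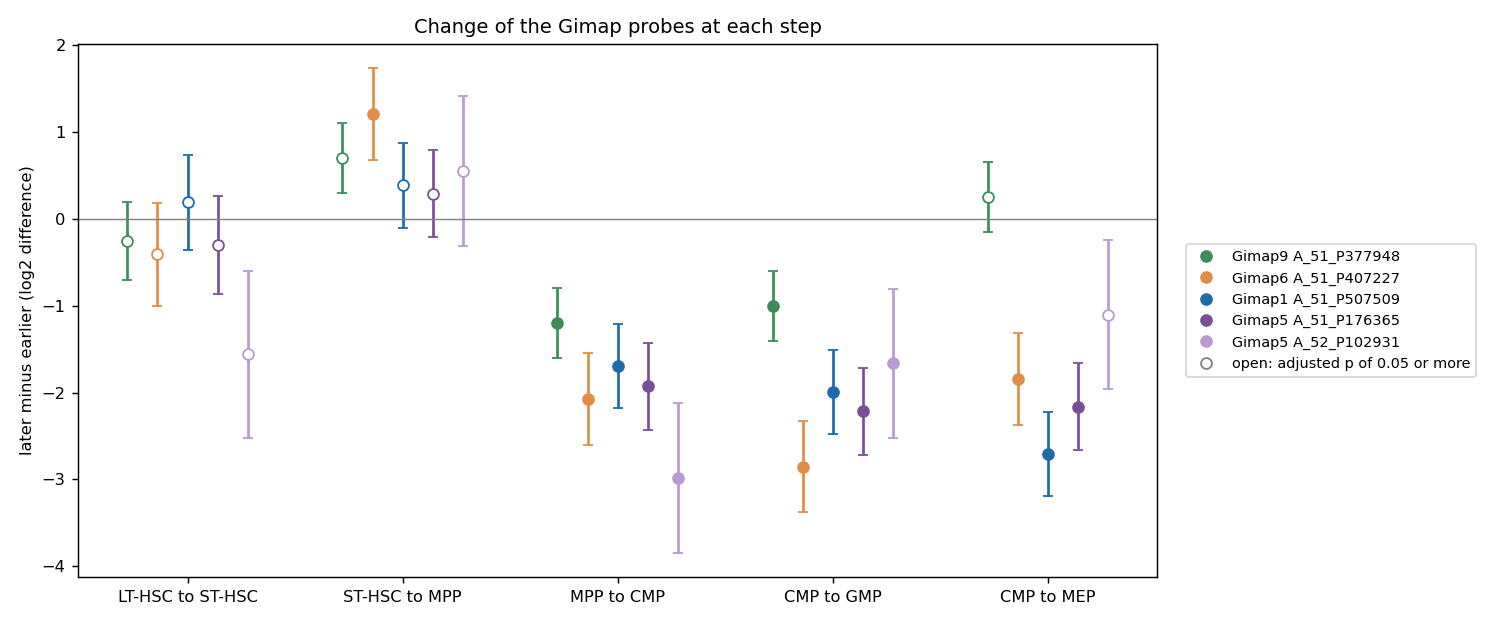
Change of the 5 well measured Gimap probes at each step of the hierarchy (horizontal axis), as later minus earlier population on the log2 scale (vertical axis) with 95% intervals, filled where the adjusted p was under 0.05. From MPP to CMP all 5 fall, between 1.20 and 2.98. From CMP to MEP the Gimap9 probe alone is above 0, at 0.25.

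The 2 myeloid end populations were then compared directly, a comparison chosen after the levels had been seen. Gimap9 was lower in GMP than in MEP by 1.25 ± 0.19 (2.38-fold, limma adjusted p = 0.000264) and Gimap6 by 1.01 ± 0.25 (2.02-fold, limma adjusted p = 0.00982). Of all probes, 7.81% were called lower in GMP. Gimap1 was higher in GMP by 0.71 ± 0.23 (1.64-fold, limma adjusted p = 0.044), where 9.56% of all probes were called higher. The Gimap1 difference had the same sign within run 1 (0.88) and run 2 (0.39). Its call was lost with 75th percentile scaling (limma adjusted p = 0.059), with normexp background correction (limma adjusted p = 0.0538) and when 1 of 10 arrays was left out: any GMP array, MEP or CMP replicate 1 or 2, ST-HSC or MPP replicate 2, or the ST-HSC array without a number (0.52 to 0.79, limma adjusted p of 0.0533 to 0.188). The second Gimap5 probe gave -0.05 with a 95% interval of -0.55 to 0.45. The order of GMP and MEP was thus not the same for every member.

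Over the 17 arrays the 10 pairs among these 5 probes had Pearson correlations of 0.69 to 0.98, with Gimap1 and the second Gimap5 probe closest (0.975) and Gimap9 and Gimap1 least alike (0.688). These arrays share cell types and runs, so the correlations are given as a description. Within the 9 myeloid arrays the correlation was 0.94 for Gimap1 with the second Gimap5 probe, 0.81 for Gimap1 with Gimap6 and 0.07 for Gimap1 with Gimap9. Within the 8 HSC arrays the correlations ran from -0.57 to 0.72. The 2 Gimap5 probes had a correlation of 0.95 over all arrays and of 0.39 within the HSC arrays.

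The family profile was taken as the mean of the centred levels of the brightest probe of each of the 7 genes. Among 16709 other gene names with a probe well above background on all arrays of a population, the one most like it over the 17 arrays was March9, an E3 ubiquitin ligase (Pearson r = 0.986), followed by Map3k12, a kinase (0.980), and Sgsm1 (0.974). Nope, Spin2, Slc22a18, Slc26a11 and Rab6b, the last a small GTPase of another family, completed the first 8 (0.969 to 0.970). Member by member, the closest gene was Galnt12 for Gimap1 (0.990), Pglyrp2 for Gimap5 (0.992), Tmem121 for Gimap6 (0.983) and Samsn1 for Gimap9 (0.960). Within the 9 myeloid arrays these 4 had correlations of 0.98, 0.98, 0.94 and 0.94 with their member, and within the 8 HSC arrays of 0.84, 0.74, 0.94 and 0.86. For the weakly detected members the closest were EG235327 for Gimap4 (0.979), EG622976 for Gimap7 (0.881) and TC1610785 for Gimap3 (0.788).

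The other genes of the region were compared in the same way. Within 500 kb of the outermost Gimap probes lay 39 other probes of 27 gene names, of which 13 were called higher in HSC subsets (33.3%, against 18.2% of all probes) and 3 lower. Their median difference was 0.21. The 3 genes with the largest differences were Zfp467, a zinc finger gene (1.87 ± 0.34, limma adjusted p = 0.000657), Lrrc61, which was lower in HSC subsets (-1.62 ± 0.21, limma adjusted p = 4.12e-05), and Zfp775, another zinc finger gene (1.61 ± 0.32, limma adjusted p = 0.00124). Zfp775 was well above background on 5 arrays, Zfp467 on 13 and Lrrc61 on 16. The 1 other probe inside the cluster, TC1625932 between Gimap6 and Gimap7, was at 0.23 ± 0.24 (limma adjusted p = 0.479). The nearest probes outside it, named for their position, were AI854703, at -44.2 kb from Gimap9 (1.11 ± 0.13, limma adjusted p = 2.84e-05), and Tmem176b, a membrane protein gene 69.5 kb beyond Gimap3 (1.48 ± 0.15, limma adjusted p = 8.01e-06). No neighbour reached the differences of Gimap1, Gimap5 or Gimap6.

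**Figure D4:**
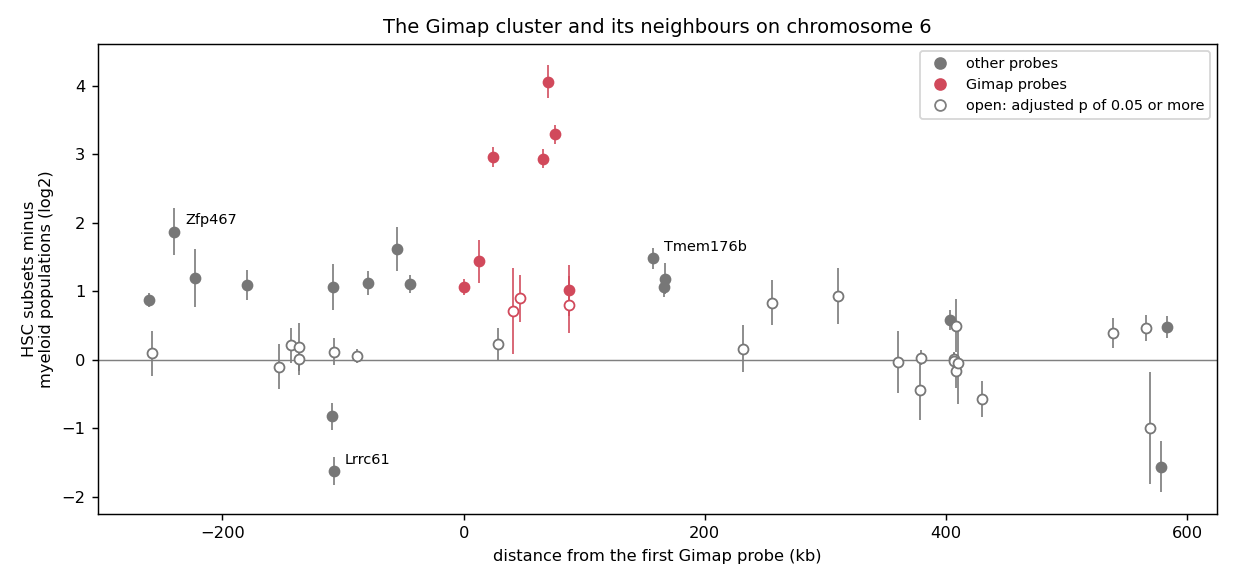
Difference between HSC subsets and myeloid populations (vertical axis, log2, bars are SE) for probes of chromosome 6, by distance in kb from the first Gimap probe (horizontal axis). Gimap probes are red, the 39 other probes grey, and filled points have an adjusted p under 0.05. The 4 Gimap probes between 2.94 and 4.06 stand above all other probes of the region, of which the highest is Zfp467 at 1.87.

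Other GTPases of the immune system were read as a family for comparison, with the brightest probe of each gene name. These are immunity-related GTPases and guanylate-binding proteins, with Mx1, Mx2 and the very large GTPase Gvin1. Many of them are induced by interferon and act against pathogens inside cells. Of 24 listed genes 16 were measured, and 11 were called higher in HSC subsets and 1, Gbp6, lower, where 21.7% of all gene names were called higher and 19.1% lower. Their median difference was 1.14, against 0.04 over all gene names. The largest were those of Iigp1 (4.40 ± 0.25, limma adjusted p = 4.03e-08), Mpa2l (2.96 ± 0.45, limma adjusted p = 0.000156) and Gbp4 (1.96 ± 0.33, limma adjusted p = 0.000394). Gbp4 was well above background on 5 HSC arrays and 1 myeloid array, and Mpa2l on 7 and 3. Iigp1 stood at means of 10.73, 9.97 and 10.71 in LT-HSC, ST-HSC and MPP and at 6.74, 4.84 and 6.64 in CMP, GMP and MEP.

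Gimap5 and its relatives have been linked to proteins of the Bcl2 family, which decide on cell survival. Of 12 listed survival genes 10 were measured, and 5 were called higher and 4 lower, with a median of 0.17, where 21.7% of all gene names were called higher and 19.1% lower. The 3 largest differences were those of Bcl2a1b (2.95 ± 0.28, limma adjusted p = 3.29e-06) and Bcl2 (1.15 ± 0.18, limma adjusted p = 0.00022), which oppose cell death, and of Il7r, the interleukin-7 receptor (1.68 ± 0.31, limma adjusted p = 0.000663). Mcl1, which also opposes cell death, and Bcl2l11, which promotes it, were called higher too (1.05 and 0.82). The 4 genes called lower were Bid, Bak1, Bax and Bad (-1.07, -1.02, -0.78 and -1.13), all of which promote cell death. Bcl2l1, which opposes it, was at -0.47 and did not pass. These last 7 were chosen after their values were seen. Unlike Gimap5, Bcl2 had its highest mean in CMP (11.87).

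Markers of other cell types were read beside the family, against the same 21.7% of gene names called higher and 19.1% called lower. Of the T cell markers 10 of 11 were called higher in HSC subsets, of early lymphoid markers 6 of 7, of B cell markers 4 of 8, of NK cell markers 4 of 7 and of endothelial markers 5 of 8. Of these lists, B cell and endothelial markers also held 1 gene each that was called lower, Cd22 and Plvap. Of the genes called higher, the NK cell marker Klra8 was well above background on no array. The NK cell marker Gzma and the endothelial marker Cdh5 were so on 1 HSC array each and on no myeloid array. The summed T cell marker intensity was 1534 to 2110 in CMP, 482.1 to 695.5 in GMP and 631.6 to 920.1 in MEP, below the HSC subsets throughout. The summed endothelial intensity was 1714 to 2869 in HSC subsets, most of it from Emcn, and 610.5 to 846.1 in myeloid populations. The summed early lymphoid intensity, most of it from Dntt except in GMP, was 155400 to 198000 in MPP, 5162 to 30170 in the other HSC subsets and 990.2 to 57690 in myeloid populations. The summed B cell intensity, most of it from Cd79b, was 2518 to 7624 in HSC subsets and 440.5 to 4123 in myeloid populations, and the NK cell sum, nearly all of it from Nkg7, was highest in GMP (27970 to 58590). Klrd1 and Klrb1c, also NK cell markers, had their lowest means in GMP (4.78 and 2.91). Of markers of mature neutrophils 4 of 6 were called higher and none lower, and of mature erythroid cells 2 of 5 higher and 1 lower. The summed neutrophil intensity was 354800 to 562900 in LT-HSC and 268200 to 565100 in ST-HSC. It was 74990 to 289500 in MPP and 38330 to 229200 in myeloid populations. The erythroid sum was 7324 to 23800 in HSC subsets, 486 to 4650 in CMP and GMP and 18250 to 58670 in MEP. Cells with B220, CD3, GR-1 or Ter119 had been depleted before the sorts. The part of these cell types in the Gimap levels was not tested.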

How the data were processed

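The mRNA of 6 sorted populations was read on 17 single-color Agilent arrays. Per the file headers, the deposited intensities were background-subtracted and detrended by Feature Extraction 9.5.3.1 or 10.2.1.3, and they were not scaled between arrays. A second file of the authors holds quantile-normalized log2 values. Its rows were matched by spot order (Spearman correlation of at least 0.9937 with the mean intensity), and it was used as an alternative.

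After a log2 transform, quantile normalization was applied to all spots. The 1639 control spots were then dropped, spots marked as outliers were set missing (161 probe values), and spots of a probe were averaged. A mean per population was fitted with lmFit and eBayes (limma 3.58.1, R 4.3.3), and p-values were adjusted over all probes by Benjamini-Hochberg. HSC subsets and myeloid populations were compared as equally weighted population means. Where no array of a side was well above background, only a bound on the fold was given, against the lowest signal well above background on each array. The rule for named genes took all member probes, the 3 largest differences per list and region, and the closest profiles. Cell type lists are given mainly as counts, and the markers and other genes named outside the rule were chosen after their values were seen.

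The members and lists were chosen with earlier results of these data known. Replicates are pools of mice, and the number of arrays limits the precision. Alternatives were scaling to the 75th percentile, normexp (offset 50), the values of the authors, removal of dim probes, a block for run, slide or replicate number, 1 value per gene, and fits without LT-HSC or without any single array.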

Additional observations from a re-analysis of the deposited data

How the results depend on the processing

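The differences of Gimap9, Gimap6, Gimap1 and both Gimap5 probes between HSC subsets and myeloid populations kept their sign and call under every alternative run and without any single array. No result with the replicate block is given for this comparison, nor for the steps from LT-HSC to ST-HSC and from MPP to CMP. LT-HSC carried no single number. The 75th percentile scaling moved the median of all probes from -0.02 to 0.31, and relative to it the differences were 0.73, 2.65, 2.61, 3.97 and 3.05. The first Gimap7 probe reversed with the scanning run as a block (-2.37) or slide as a random block (-0.07). The second Gimap7 probe passed under 5 alternatives and also without the LT-HSC or CMP array without a number or ST-HSC replicate 2. Normexp background correction gave folds smaller by over 1.5 times, unlogged, for the first Gimap5 probe from MPP to CMP (-2.11), Gimap6 from CMP to GMP (-2.15 on the log2 scale) and the second Gimap5 probe from CMP to GMP (-1.48) and to MEP (-1.44), all still called. The cause was not tested. For the step from LT-HSC to ST-HSC, 2 member probes were called with normexp background correction, the authors' table or the run as a block, and 1 to 2 without 1 array. For the step from ST-HSC to MPP, 2 were called with normexp, the authors' table, the run as a block or slide as a random block, and 0 to 1 without 1 array. From CMP to MEP, 5 were called with the run as a block. Other counts stayed within 1.5 times. Same-numbered arrays deviated together only weakly (correlations of 0.056 to 0.18 in 4 pairs of populations), so the number was not taken as a pairing; with the replicate block, 0 were called from ST-HSC to MPP (Gimap6 at 1.22, limma adjusted p = 0.0538) and 5 from CMP to MEP. That fit held only the 10 arrays with a single number, so the block and the arrays left out cannot be told apart. Gimap3, Gimap4 and Gimap7 were limited by signal near background.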
